A study of Mus musculus with 12 samples.

Results

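The type I hair shaft keratins Krt31, Krt32, Krt33a, Krt33b, Krt34, Krt35 and Krt36 were measured as transcripts in the epidermis of newborn mice. They were taken by gene symbol, and all 7 were found among the 46078 genes of the count table. All 7 passed the filter on low counts that kept 14582 genes for testing. The study sequenced 12 epidermis libraries, 3 from each of 4 genotypes, and by the stated design each library is a separate mouse. Every genotype carried K14-Cre, a transgene in which the keratin 14 promoter expresses Cre recombinase in basal keratinocytes and in the follicle cells that derive from them. Controls carried K14-Cre alone. Llgl cKO mice carried K14-Cre with Llgl1 and Llgl2 flox/flox, so that both homologues of the Drosophila polarity gene lethal giant larvae are targeted. Trp53 het mice carried K14-Cre with Trp53 +/flox, so that a single allele of the p53 gene is targeted. Llgl cKO Trp53 het mice combined the floxed Llgl1, Llgl2 and Trp53 alleles with K14-Cre. No group without Cre was analysed here.

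Keratins are the intermediate filament proteins of epithelia, and each filament pairs an acidic type I chain with a basic type II chain. Hair shaft keratins, also called hard keratins, are rich in cysteine and are made by keratinocytes that leave the matrix of the hair bulb and become the cuticle and cortex of the shaft, where keratin-associated proteins crosslink them. Krt35 is among the first to appear, in the matrix and precortex and in the cuticle, Krt32 belongs to the cuticle, and Krt31, Krt33a, Krt33b and Krt34 belong mainly to the cortex. Among the regulators known for these genes are the homeodomain factor HOXC13 and the Wnt effector LEF1.

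The 7 genes lie side by side on the minus strand of chromosome 11 (GRCm38), within 94.4 kb that hold no other protein-coding gene. In order along the chromosome they are Krt33a (ENSMUSG00000035592, chr11:100011195-100016212), Krt33b (ENSMUSG00000057723, chr11:100023634-100029868), Krt34 (ENSMUSG00000043485, chr11:100037347-100041554), Krt31 (ENSMUSG00000048981, chr11:100046646-100050551), Krt32 (ENSMUSG00000046095, chr11:100080848-100088226), Krt35 (ENSMUSG00000048013, chr11:100092193-100096241) and Krt36 (ENSMUSG00000020916, chr11:100102007-100105626). Each has a single protein-coding transcript of 7 exons in the GENCODE annotation. The transcripts of the cortex genes Krt31, Krt33a, Krt33b and Krt34 were 77.1 to 80.3% identical to each other over their length, against 64.1 to 66.3% in every other pair of members.

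The promoters of the 3 cortex genes whose RefSeq promoter was in the table, and of the cuticle gene Krt32, are shown because they share the same 2 motifs at nearly the same distance from the transcription start. The sequences are from RefSeq (GRCm38.p6), are written 5′ to 3′ on the minus strand, and end at the base before the start. They cover chr11:100050552-100050801 (Krt31), chr11:100029869-100030118 (Krt33b), chr11:100041555-100041804 (Krt34) and chr11:100088270-100088519 (Krt32). Capitals mark the motifs.
Krt31: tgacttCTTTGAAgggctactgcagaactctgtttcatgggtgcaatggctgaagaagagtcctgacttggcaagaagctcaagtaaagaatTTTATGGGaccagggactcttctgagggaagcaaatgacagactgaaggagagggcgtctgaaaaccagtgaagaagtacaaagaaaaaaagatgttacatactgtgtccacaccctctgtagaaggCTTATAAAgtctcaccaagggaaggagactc
Krt33b: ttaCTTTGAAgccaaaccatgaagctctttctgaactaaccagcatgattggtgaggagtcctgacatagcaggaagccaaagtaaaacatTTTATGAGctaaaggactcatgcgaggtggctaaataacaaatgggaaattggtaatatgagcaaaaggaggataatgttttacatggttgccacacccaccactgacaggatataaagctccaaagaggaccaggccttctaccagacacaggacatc
Krt34: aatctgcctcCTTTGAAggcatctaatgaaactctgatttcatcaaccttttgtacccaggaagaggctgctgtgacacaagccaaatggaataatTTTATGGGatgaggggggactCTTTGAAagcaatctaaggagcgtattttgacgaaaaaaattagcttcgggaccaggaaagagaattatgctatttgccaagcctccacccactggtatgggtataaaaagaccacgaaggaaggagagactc
Krt32: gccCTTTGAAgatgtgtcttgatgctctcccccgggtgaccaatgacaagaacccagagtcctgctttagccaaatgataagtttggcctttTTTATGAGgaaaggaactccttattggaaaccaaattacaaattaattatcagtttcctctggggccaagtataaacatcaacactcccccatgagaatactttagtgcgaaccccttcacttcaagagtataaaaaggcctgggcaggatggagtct
The LEF1/TCF motif was searched as CTTTGAA or CTTTGAT and the HOXC13 motif as TTTATNAA, TTTATNAG, TTTATNGA, TTTATNGG, TTAATNAA, TTAATNAG, TTAATNGA or TTAATNGG, on both strands. CTTTGAA began 244 bases before the start in Krt31, 247 in Krt33b, 240 and 133 in Krt34 and 247 in Krt32. The HOXC13 motif began 158 bases before the start in Krt31 and read TTTATGGG, 159 in Krt33b with TTTATGAG, 154 in Krt34 with TTTATGGG and 158 in Krt32 with TTTATGAG. Krt31 had a further HOXC13 match on the opposite strand 31 bases before the start, printed as CTTATAAA, which overlaps a TATA-like stretch. No LEF1/TCF match overlapped a HOXC13 match. Of the 5 members with a promoter in the table, 4 held the LEF1/TCF motif and 4 held the HOXC13 motif, and the exception in both was Krt36, in whose window neither set of letters was found. Over all 32851 promoter windows of the same 250 bases, 7.48% held the LEF1/TCF motif, 17.2% the HOXC13 motif and 1.66% both. The start that RefSeq gives for Krt32 is not that of its GENCODE transcript. The promoters of Krt33a and Krt35 were not analysed here.

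Column totals ran from 6738720 to 14509507 counts. Llgl2 changed by -3.40 on the log2 scale between the 6 libraries with floxed Llgl alleles and the other 6 (edgeR quasi-likelihood, adjusted p = 9.54e-06). Llgl1 was higher there by 0.79 (adjusted p = 0.00723), and the table does not separate its floxed exons. Trp53 was at 61.7 and 60.8 CPM (counts scaled to a common library size) in Trp53 het libraries 1 and 2 and at 115 in the library labelled Trp53 het 3, within the 109 to 130 of controls. In Llgl cKO Trp53 het it was at 98.2, 67.7 and 65.8 CPM, so that library 1 was the highest of its group for Trp53, as it also was for every type I hair keratin. Control 3 and Trp53 het 3 stood apart from the rest of their groups in the hair genes, and the number of members called is given in each comparison with and without them. These libraries were picked after the levels were seen, and they were the lowest of their groups for every member except Krt35. Leaving them out therefore tends to widen the Llgl differences, and calls gained in that way are not further support for them. Because the cortex genes resemble each other, 28.1% of the 50-base stretches of the Krt31 transcript, 21.9% of Krt33a, 24.2% of Krt33b and 33.1% of Krt34 also occur in another gene, against 3.95% for Krt35, 0.432% for Krt36 and 0% for Krt32. How the counting treated reads from such stretches is not given in the sources used here, so single values of the 4 cortex genes are uncertain. A gene on the opposite strand of Krt32, Gm11571, had 1 to 7 counts a library where Krt32 had 101 to 536.

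Levels below are CPM on library sizes scaled by the trimmed mean of M-values, given for libraries 1, 2 and 3 of a group in that order. In bulk tissue, fewer cells of a type and less RNA per cell cannot be told apart.

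Krt35, the early keratin of matrix and cuticle, was at 55.0, 71.1 and 69.9 CPM in control and at 38.2, 54.7 and 77.4 in Trp53 het. It was at 63.1, 145 and 34.0 CPM in Llgl cKO and at 29.9, 16.5 and 16.1 in Llgl cKO Trp53 het. The 3 Llgl cKO Trp53 het libraries were below the other 9 for Krt35, whereas the Llgl cKO libraries lay on both sides of the controls. Krt32, the cuticle keratin, was at 38.5, 38.4 and 18.2 CPM in control and at 36.9, 27.0 and 22.6 in Trp53 het. Its level was 22.0, 39.0 and 11.8 CPM in Llgl cKO and 11.7, 9.98 and 8.45 in Llgl cKO Trp53 het. The lowest Llgl cKO library, library 3, was just above the highest Llgl cKO Trp53 het library for Krt32, and Llgl cKO overlapped both control and Trp53 het.

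The 4 cortex keratins showed a wider spread inside the control and Trp53 het groups. Krt31 was at 49.3, 46.2 and 11.6 CPM in control and at 50.7, 31.9 and 15.3 in Trp53 het. Krt31 was at 5.08, 17.4 and 6.07 CPM in Llgl cKO and at 3.92, 1.28 and 1.34 in Llgl cKO Trp53 het. Control 3 was below Llgl cKO 2 for Krt31, so those groups overlapped, and every Llgl cKO Trp53 het library was below every other library. Krt33a was at 84.1, 77.0 and 12.3 CPM in control and at 87.3, 61.1 and 20.7 in Trp53 het. Krt33a was at 5.97, 32.3 and 8.09 CPM in Llgl cKO and at 3.06, 0.768 and 2.26 in Llgl cKO Trp53 het. The same libraries were high and low for Krt33a as for Krt31: control 3 and Trp53 het 3 were the lowest of their groups, and Llgl cKO 2 was the highest of its own.

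Krt33b was at 43.8, 43.3 and 6.52 CPM in control and at 32.0, 18.0 and 10.1 in Trp53 het. Krt33b was at 2.54, 11.4 and 5.72 CPM in Llgl cKO and at 1.10, 0.0853 and 0.167 in Llgl cKO Trp53 het, where the counts behind these levels were 14, 1 and 2. Its Llgl cKO Trp53 het libraries therefore rest on very few reads, and all 3 were below the other 9 libraries. Krt34 was at 66.0, 50.6 and 5.88 CPM in control and at 59.0, 42.5 and 10.7 in Trp53 het. Krt34 was at 3.57, 16.2 and 4.93 CPM in Llgl cKO and at 1.18, 0.682 and 0.585 in Llgl cKO Trp53 het, from 15, 8 and 7 counts. Control 3 lay inside the Llgl cKO range for both Krt33b and Krt34, and no Llgl cKO Trp53 het library overlapped another group.

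Krt36 was the least abundant member in controls. It was at 3.76, 5.69 and 3.06 CPM in control and at 5.35, 4.94 and 4.29 in Trp53 het. Its level was 1.37, 5.24 and 2.29 CPM in Llgl cKO and 1.18, 0.256 and 0.167 in Llgl cKO Trp53 het, the last from 15, 3 and 2 counts. Llgl cKO 1 was close to Llgl cKO Trp53 het 1 for Krt36, and Llgl cKO 2 was inside the control range.

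**Figure D1:**
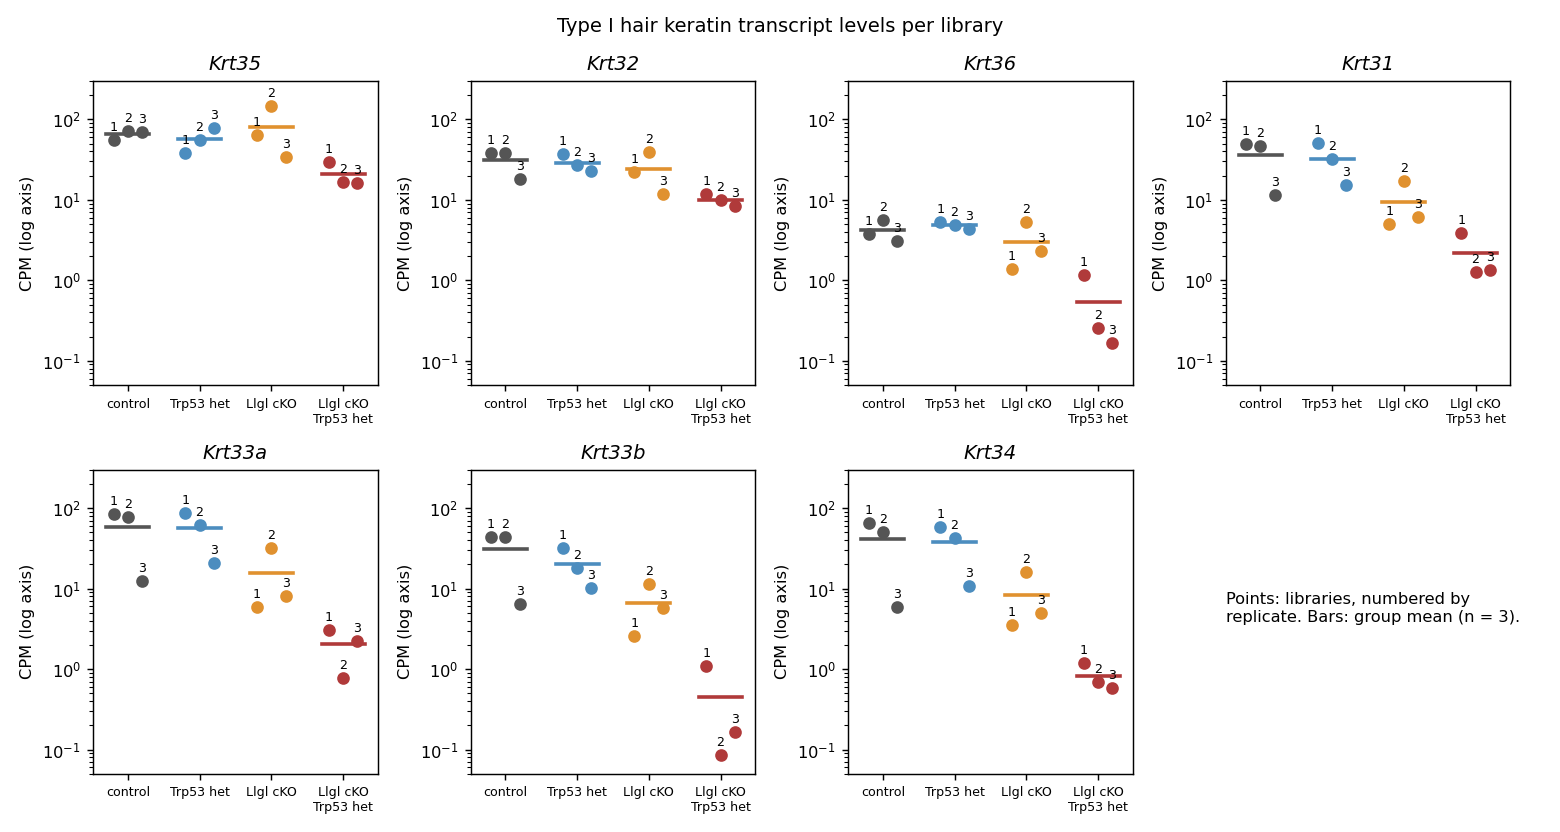
Level of each type I hair keratin in CPM on a log axis, by genotype group on the horizontal axis, with 1 point per library, numbered by replicate, and a bar at the group mean (n = 3). The Llgl cKO Trp53 het libraries are the lowest in all 7 panels. Control 3 and Trp53 het 3 are the lowest of their groups for every member except Krt35.

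Divided by transcript length, the control means ordered as Krt35 (37.9 ± 5.19 CPM per kb, SD, n = 3), Krt33a (34.4 ± 23.5), Krt34 (25.4 ± 19.4), Krt31 (22.6 ± 13.3), Krt33b (19.7 ± 13.5), Krt32 (19.1 ± 7.03) and Krt36 (2.50 ± 0.816). Differences between members were not tested. Among neighbours in the first 6, Krt33a was above Krt34 and Krt31 above Krt33b in each control library, and the other pairs changed order between libraries. Krt36 was the lowest member in each control library. In Llgl cKO the order of the mean levels per length began with Krt35 (46.95 ± 33.5 CPM per kb) and Krt32 (14.6 ± 8.27), followed by Krt33a (9.19 ± 8.70). In Llgl cKO Trp53 het it began with Krt35 (12.1 ± 4.55 CPM per kb) and Krt32 (6.03 ± 0.972), with Krt31 (1.38 ± 0.953) and Krt33a (1.21 ± 0.690) next and Krt33b last (0.285 ± 0.356). Krt35 and Krt32 were above the other 5 members in each of the 6 libraries of the Llgl cKO and Llgl cKO Trp53 het groups.

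The comparison of Trp53 het with control addressed the loss of a single Trp53 allele where both Llgl genes are intact. No difference was called in the type I hair keratins. Log2 differences ran from -0.63 (Krt33b, 95% interval -2.26 to 1.00) to 0.21 (Krt36, -0.98 to 1.41), with a median of -0.12, and all 7 adjusted p-values were 1 by edgeR's quasi-likelihood test with Benjamini-Hochberg adjustment. The count of 0 among 7 stood beside a background of 0% of genes called, DESeq2 also called 0, and 0 members had an unadjusted p below 0.05, against 0.432% of all genes tested. Without control 3 and Trp53 het 3 the count was again 0, every adjusted p was 1, and 0.00677% of all genes were called. The intervals are wide, and for Krt34 the interval of -1.89 to 1.65 holds changes of more than 1 log2 unit in either direction. The direction turned in Krt31, Krt32, Krt33a and Krt34 when library 1 or 2 of the controls or library 3 of Trp53 het was left out, and in Krt35 when library 1 of Trp53 het was.

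Llgl cKO was set against control to ask about the loss of Llgl1 and Llgl2 where Trp53 is intact. The means of the cortex keratins were lower in Llgl cKO, at 9.52 ± 6.84 CPM against 35.7 ± 20.9 for Krt31, 15.5 ± 14.6 against 57.8 ± 39.6 for Krt33a, 6.54 ± 4.47 against 31.2 ± 21.4 for Krt33b and 8.22 ± 6.91 against 40.8 ± 31.2 for Krt34 (SD, n = 3). None of these differences passed the test. The log2 differences were -1.90 for Krt31 (95% interval -3.37 to -0.42, adjusted p = 0.623), -1.89 for Krt33a (adjusted p = 0.753), -2.25 for Krt33b (adjusted p = 0.613) and -2.30 for Krt34 (-4.18 to -0.41, adjusted p = 0.668). Krt32 at -0.38 and Krt36 at -0.49 had intervals that include 0, as had Krt35 at 0.31 (-0.69 to 1.30), and all 7 members overlapped between the groups, where 5.31% of all genes were lower without overlap. edgeR called 0 of 7, beside 0.226% of all genes, DESeq2 called 0, beside 0.782%, and 4 members had an unadjusted p below 0.05, against 6.31% of the genes tested. Without control 3 and Trp53 het 3, Krt33b and Krt34 were called lower (adjusted p = 0.0378 and 0.0237), where 2.8% of all genes were called. Since control 3 was left out for its low hair genes, these calls follow in part from that choice. The direction of Krt35 turned without Llgl cKO 2, to -0.43.

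The comparison of Llgl cKO Trp53 het with control addressed both losses together, and the cortex keratins fell. Krt31 went from 35.7 ± 20.9 to 2.18 ± 1.51 CPM (SD, n = 3), a log2 change of -4.01 (95% interval -5.69 to -2.33, edgeR adjusted p = 0.0396). Krt33a changed by -4.81 on the log2 scale (adjusted p = 0.045), from 57.8 ± 39.6 to 2.03 ± 1.16 CPM. Krt33b changed by -6.04 (adjusted p = 0.0308), to 0.450 ± 0.562 CPM, and Krt34 by -5.61 (adjusted p = 0.0406), to 0.814 ± 0.317 CPM. These 4 were the members called by edgeR, beside 0.905% of all genes called lower. Krt36 at -2.92 (adjusted p = 0.0544), Krt32 at -1.65 (adjusted p = 0.0873) and Krt35 at -1.65 (-2.69 to -0.61, adjusted p = 0.132) did not pass. All 7 were lower in each Llgl cKO Trp53 het library than in any control library, as were 9.2% of all genes, and the median log2 difference of the 7 was -4.01 against -0.01 over all genes tested. The calls depended on single libraries: edgeR called 0 of 7 when library 1 or 2 of the controls, library 2 of Trp53 het, or library 2 or 3 of Llgl cKO Trp53 het was left out. It called 2 and 7 when library 3 or library 2 of Llgl cKO was left out, 3 when library 1 of Llgl cKO Trp53 het was, and 6 when control 3 was. It called 0 with no filter on low counts or when only the groups compared were fitted. It called 6 with replicate number as a block, beside 1.8% of all genes lower, and 6 with both control 3 and Trp53 het 3 left out, beside 4.09%, and DESeq2 called 7, beside 2.97%. All 7 log2 differences stayed below 0 in each of these fits.

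The comparison of Llgl cKO Trp53 het with Trp53 het addressed the loss of Llgl1 and Llgl2 where a Trp53 allele is already targeted. It shares the Llgl cKO Trp53 het libraries with the comparison against control, so the results are not independent. The cortex keratins fell here too, with log2 changes of -3.88 for Krt31 (adjusted p = 0.0411), -4.78 for Krt33a (adjusted p = 0.0463), -5.40 for Krt33b (adjusted p = 0.0369) and -5.49 for Krt34 (adjusted p = 0.0415) by edgeR. Krt36 changed by -3.14 (95% interval -4.55 to -1.72, adjusted p = 0.0457), from 4.86 ± 0.536 to 0.533 ± 0.558 CPM (SD, n = 3). Krt32 at -1.52 (adjusted p = 0.1) and Krt35 at -1.45 (adjusted p = 0.167) did not pass, though both were below every Trp53 het library in each Llgl cKO Trp53 het library. The 5 called members stood beside 0.919% of all genes called lower, and the 7 without overlap beside 10.7% of all genes. edgeR called 0 of 7 when library 1 or 2 of the controls, library 1 or 2 of Trp53 het, library 3 of Llgl cKO, or library 2 or 3 of Llgl cKO Trp53 het was left out, and 3 when library 1 of Llgl cKO Trp53 het was. With no filter on low counts it called 1, Krt36, and DESeq2 called 7, beside 3.14% of all genes lower. edgeR with the replicate block called 6, beside 1.88%, and with both control 3 and Trp53 het 3 left out 6, beside 3.77%.

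**Figure D2:**
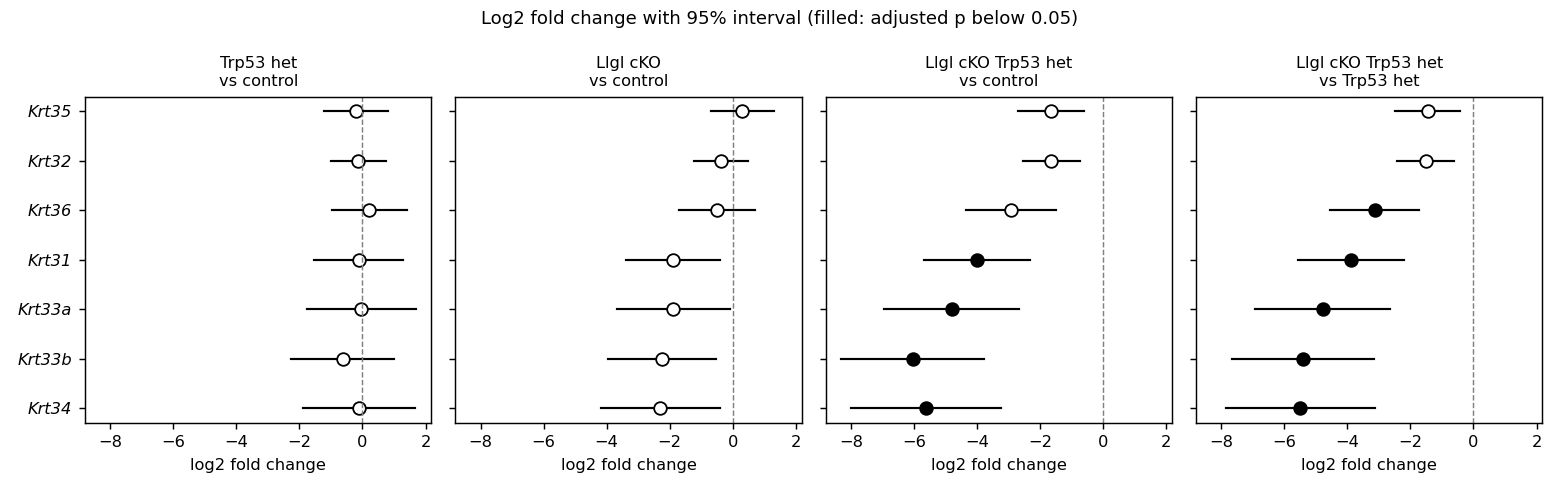
Log2 fold change of each type I hair keratin (horizontal axis) with its 95% interval in 4 comparisons, from the edgeR fit over 12 libraries, with filled points for an adjusted p below 0.05. Filled points are Krt31, Krt33a, Krt33b and Krt34 in Llgl cKO Trp53 het against control, at -4.01 to -6.04, and the same genes with Krt36 against Trp53 het, at -3.14 to -5.49.

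Between the 2 Llgl cKO genotypes, all 7 members were lower in each Llgl cKO Trp53 het library than in any Llgl cKO library, as were 5.12% of all genes, and none passed edgeR's test. Krt35 was at 20.8 ± 7.83 CPM against 80.9 ± 57.7 (SD, n = 3), a log2 difference of -1.96 (adjusted p = 0.668). Krt33b differed by -3.79 (adjusted p = 0.668), Krt34 by -3.31 (adjusted p = 0.747) and Krt36 by -2.43 (adjusted p = 0.668), and the smallest difference was that of Krt32, at -1.28 (adjusted p = 0.747). edgeR called 0 of 7 and 0% of all genes. At an unadjusted p below 0.05 all 7 members passed, against 5.12% of the genes tested, and DESeq2 called 3, Krt33b, Krt35 and Krt36, beside 0.357% of all genes. Without control 3 and Trp53 het 3, edgeR called 0, with a lowest adjusted p of 0.263, beside 0.00677% of all genes.

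Whether the Llgl difference itself depended on Trp53 was tested as an interaction, the Llgl difference with the Trp53 allele targeted minus that without. The interaction was negative for all 7 members, from -1.14 (Krt32) to -3.19 (Krt34, 95% interval -6.15 to -0.23), and every adjusted p was 1. edgeR called 0 of 7 and 0% of all genes, DESeq2 called 0, and 5 members had an unadjusted p below 0.05, against 2.94% of the genes tested. Leaving out control 3 and Trp53 het 3 gave 0 of 7 as well, with every adjusted p at 1, beside 0% of all genes. A difference between the Llgl effects in the 2 Trp53 backgrounds was thus not shown for any type I hair keratin.

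Averaged over both Trp53 backgrounds, 6 libraries against 6, the Llgl effect was called lower in 5 of the 7, beside 2.15% of all genes. The log2 change was -3.89 for Krt34 (95% interval -5.41 to -2.37, edgeR adjusted p = 0.0154), -3.82 for Krt33b (adjusted p = 0.0141), -3.33 for Krt33a (adjusted p = 0.0195), -2.89 for Krt31 (adjusted p = 0.0151) and -1.81 for Krt36 (adjusted p = 0.0413). Krt32 at -0.95 (-1.57 to -0.32, adjusted p = 0.103) and Krt35 at -0.57 (-1.28 to 0.14, adjusted p = 0.391) did not pass. All 7 members overlapped between the 6 and the 6 libraries, where 1.21% of all genes were lower without overlap. The number called was 3 when control 2 or library 1 of Llgl cKO was left out, 1 (Krt33b) and 2 when library 2 or 3 of Llgl cKO Trp53 het was, and 2 with no filter on low counts. Krt36 also lost its call when control 1, either of the first 2 libraries of Trp53 het, or library 3 of Llgl cKO was left out. DESeq2 called 6, beside 4.31% of all genes lower, the replicate block gave 6, beside 2.93%, and leaving out control 3 with Trp53 het 3 gave 6, beside 7.78%.

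The make-up of the 7 transcripts differed between libraries of a single group as well as between groups. Krt35 made up 15.4 and 20.5% of the summed CPM per kb in control libraries 1 and 2 and 53.6% in control 3. In Trp53 het it made up 11.8, 21.9 and 46.8%, in Llgl cKO 59.8, 53.3 and 45.4%, and in Llgl cKO Trp53 het 56.3, 54.9 and 54.3%. Control 3 and Trp53 het 3 thus had shares of Krt35 inside the Llgl cKO range. Krt34 moved the opposite way, with 19.8, 15.6 and 4.82% in control, 19.5, 18.2 and 6.91% in Trp53 het, 3.62, 6.34 and 7.03% in Llgl cKO and 2.37, 2.42 and 2.12% in Llgl cKO Trp53 het. Krt32 made up 11.2, 11.4 and 14.4% in control and 22.8, 34.3 and 29.6% in Llgl cKO Trp53 het, without overlap. The shares of a library add up to a fixed whole, so a larger share of a member means smaller shares elsewhere. The difference in make-up was not tested.

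**Figure D3:**
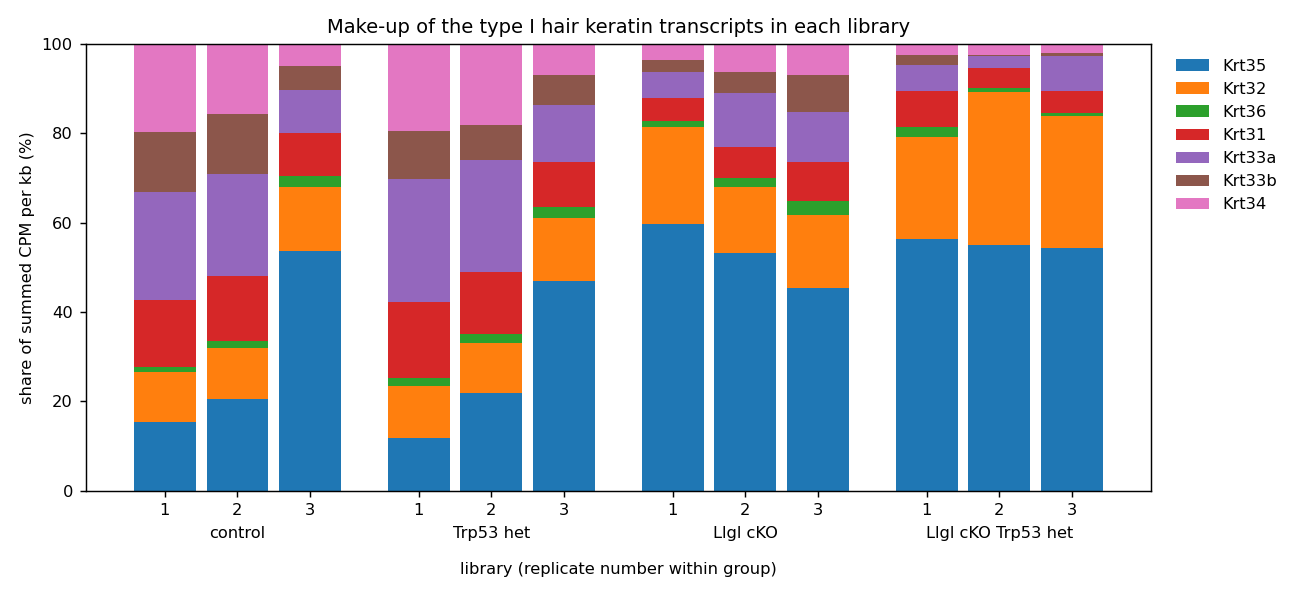
Share of each type I hair keratin in the summed CPM per kb of the 7 (vertical axis, percent) in each library (horizontal axis, by group and replicate). Krt35 makes up 53.6% in control 3 and 46.8% in Trp53 het 3, against 11.8 to 21.9% in the other 4 libraries of those groups, and 45.4 to 59.8% in the 6 libraries of the Llgl cKO and Llgl cKO Trp53 het groups.

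The ratio of Krt34, a late cortex keratin, to Krt35 comes from the same levels per kb and restates these shares. Per kb it was 1.28, 0.762 and 0.0900 in control, 1.65, 0.832 and 0.148 in Trp53 het, 0.0605, 0.119 and 0.155 in Llgl cKO and 0.0421, 0.0441 and 0.0390 in Llgl cKO Trp53 het. Control 3 and Trp53 het 3 were within the Llgl cKO range, and the Llgl cKO Trp53 het libraries were below all others. Over the 12 libraries, log2 levels of the cortex genes Krt31, Krt33a, Krt33b and Krt34 correlated with each other at Pearson's r of 0.972 to 0.987, and at 0.896 to 0.966 as deviations from the group means. Krt35 correlated with the other members at 0.631 to 0.819, and at 0.0998 to 0.597 as deviations. These are descriptions: the genes share libraries and depth, and the cortex genes may share reads.

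Outside the members, the genes whose log2 CPM most resembled the mean of the 7 over the 12 libraries, of 12487 compared, were Krtap24-1 (r = 0.9954), Cryba4 (0.9949), Krt83 (0.9945), Krt81 (0.9944), Padi3 (0.9938) and Krtap3-1 (0.9934). Krt81 and Krt83 are type II hair keratins, Krtap24-1 and Krtap3-1 are keratin-associated proteins, Padi3 deiminates arginines of trichohyalin, and Cryba4 is a crystallin gene. On deviations from the group means the closest were Krtap24-1 (0.9886), Rnaset2a (0.9849), Cryba4 (0.9848), Krt83 (0.9796), Padi3 (0.9787) and Ly6g6d (0.972). Rnaset2a, a ribonuclease gene, correlated with the members inside the groups but had a log2 difference of -0.04 in the average Llgl effect (adjusted p = 0.954). Its levels were low, at 0.938 to 3.79 CPM over the 12 libraries.

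Most type II partners fell in the average Llgl effect. Of 5 type II hair keratins tested, 4 were called lower by edgeR: Krt81 at -3.42 (adjusted p = 0.0156), Krt82, of the cuticle, at -2.77 (0.0157), Krt83 at -2.70 (0.0194) and Krt86 at -3.74 (0.0185). The median of this list was -2.77 and that of the 7 members -2.89, where the median over all genes tested was -0.0026 and 2.15% of them were called lower. Krt84 went the other way, at 2.52, and did not pass (adjusted p = 0.0627). It is named after its value was seen. Krt85 and Krt87 were not analysed here. The other type I hair keratins Krt39 and Krt40 also fell, at -3.49 and -4.56 (adjusted p = 0.0154 for both).

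Most genes that assemble and crosslink the shaft were lower to a similar size. Of 33 tested, 29 were lower in the average Llgl effect and 4 higher, up to 0.345, with a median log2 difference of -3.46. Of the 33, 23 were called lower and 0 higher, beside 2.15% of all genes called lower. Among them were Krtap4-1 at -5.24 (adjusted p = 0.0147), Krtap24-1 at -3.85 (0.0171) and trichohyalin, Tchh, which links keratin filaments in the inner root sheath and medulla, at -2.95 (0.0144). Of the 8 inner root sheath keratins, which form the layer that moulds the shaft, 6 were called lower, with Krt26 at -3.06 (0.0182), Krt27 at -2.89 (0.0228) and Krt74 at -2.59 (0.0218). In Llgl cKO Trp53 het against control, 4 of 5 type II hair keratins and 13 of 33 shaft genes were called lower. So were 5 of 8 inner root sheath keratins, beside 0.905% of all genes. Against Trp53 het the numbers called lower were 4, 10 and 4 for the same lists, beside 0.919% of all genes. Shaft genes with a higher estimate numbered 4 against control, up to 1.545, and 5 against Trp53 het, up to 0.753, none of them called. In Llgl cKO against control, edgeR called none in these lists, whose medians were -1.52, -1.83 and -1.34. Leaving out control 3 and Trp53 het 3 raised the number of shaft genes called lower, of the 34 then tested, to 10 in Llgl cKO against control, 28 in Llgl cKO Trp53 het against control, 27 against Trp53 het and 28 in the average Llgl effect, where 1 was also called higher. The type II hair keratins then had 0, 4, 4 and 4 of 5 called lower in the same order of comparisons, and the inner root sheath keratins 0, 8, 6 and 6 of 8. Calls rose over all genes too, to 2.8% in either direction in Llgl cKO against control. The share called lower rose to 4.09% in Llgl cKO Trp53 het against control, 3.77% against Trp53 het and 7.78% in the average Llgl effect.

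Over all 12 libraries, no keratin of the companion layer and outer root sheath list or of the interfollicular type I list was called lower in the average Llgl effect. Of 7 companion layer and outer root sheath keratins, 0 were called, with Krt75 at -1.50 (adjusted p = 0.121) and Krt6a at -1.29 (0.157). Each was called lower in 3 of 19 alternatives. For Krt75 these were the replicate block (edgeR adjusted p = 0.0448) and the fits without library 2 of Llgl cKO (0.0446) or library 1 of Llgl cKO Trp53 het (0.0346). Krt6a was called with the replicate block (0.0238), without control 3 (0.0424), and without control 3 and Trp53 het 3, at -1.73 (0.000797). The list named interfollicular type I is not limited to keratins of the epidermis. Of its 9 keratins, 1 was called higher, Krt13, a keratin of internal stratified epithelia, at a log2 change of 2.11 (0.0128), with levels of 0.145 to 0.724 CPM in the control and Trp53 het libraries and 1.14 to 3.41 CPM in the libraries of both Llgl cKO groups. The median of that list was -0.19.

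Among 22 tested regulators of hair keratins, 2 were called in the average Llgl effect, both higher, beside 1.18% of all genes: Bmp2, a ligand of the pathway that promotes shaft differentiation, at 0.96 (adjusted p = 0.00181) and Lef1 at 0.92 (0.0266). Lef1 was at 23.2, 33.5 and 47.2 CPM in control, 22.8, 20.9 and 41.6 in Trp53 het, 60.7, 54.4 and 53.4 in Llgl cKO and 69.7, 63.0 and 58.3 in Llgl cKO Trp53 het. The third library was the highest in control and in Trp53 het for Lef1, where it was the lowest for the cortex keratins. The Lef1 call was lost in 8 of 19 alternatives. Vdr, the vitamin D receptor, was at -0.54 (0.0571). In Llgl cKO Trp53 het against control, 1 regulator was called, Bmp2, higher at 0.90 (0.0319), beside 0.343% of all genes called higher. Against Trp53 het, Bmp2 was called higher at 1.10 (0.0118), beside 0.439% of all genes, and Vdr was called lower at -0.93 (0.0471). Hoxc13, named in the background, and Foxn1, a forkhead factor of the precortex, were looked up outside the rule for named genes. In the average Llgl effect Hoxc13 was at -0.36 (adjusted p = 0.433) and Foxn1 at -0.20 (0.543), neither called. The median of the list in the average Llgl effect was -0.01. Of 11 hair follicle progenitor genes, a list that also holds Vdr, 1 was called in the average Llgl effect, Lgr6, higher at 0.61 (0.00883), and Shh was at 0.86 (0.154). Lgr6 was also called higher in Llgl cKO Trp53 het against Trp53 het, at 0.62 (0.0495), and against control it was at 0.63 (0.0504), where no gene of that list was called. In the average Llgl effect without control 3 and Trp53 het 3, 4 regulators were called higher and 3 lower, and 3 progenitor genes higher and 2 lower, beside 8.03% of all genes higher and 7.78% lower.

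**Figure D4:**
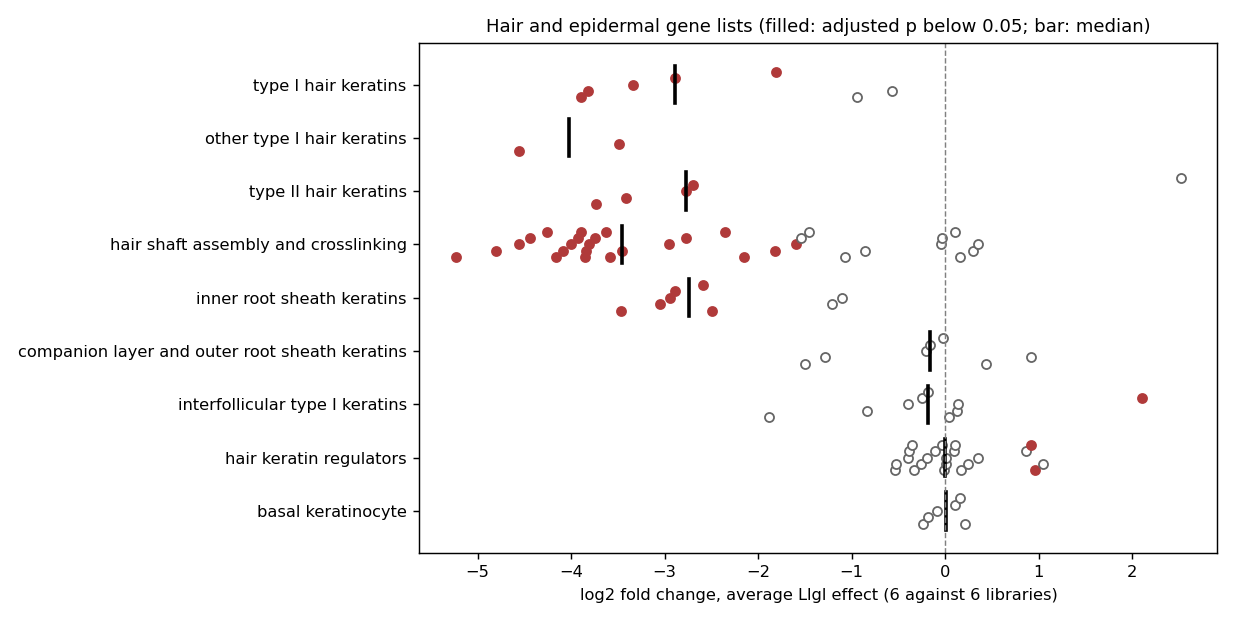
Log2 fold change in the average Llgl effect (horizontal axis, 6 against 6 libraries) of each tested gene in 9 keratin, hair and epidermal gene lists (vertical axis), with filled points for an edgeR adjusted p below 0.05 and a bar at the median. The shaft and inner root sheath lists have medians of -2.74 to -4.02, and the other keratin lists, the regulators and the basal keratinocyte genes have medians of -0.19 to 0.01.

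Markers of other cell types moved with the Llgl genotype in part, and their part in the keratin results was not tested. Unless stated, calls here are from the average Llgl effect, where 2.15% of all genes were called lower and 1.18% higher. Basal keratinocyte genes had 0 of 6 called, with a summed level of 15492 to 18372 CPM in control, 15518 to 18178 in Trp53 het, 13730 to 15943 in Llgl cKO and 15344 to 18869 in Llgl cKO Trp53 het. Llgl cKO libraries 1 and 2, at 13730 and 13906 CPM, were below every control library. Suprabasal genes had 1 of 6 called, Ivl, lower at -0.93 (adjusted p = 0.0317). Of 11 sebaceous gland genes 5 were lower, with Awat2 at -1.55 (0.0151), Scd1 at -1.07 (0.0151) and Soat1 at -1.07 (0.0241), and the summed level was 843 to 1095 CPM in control, 870 to 1305 in Trp53 het, 913 to 1024 in Llgl cKO and 656 to 965 in Llgl cKO Trp53 het. T cell genes had 2 of 7 called lower, Il2rb at -2.44 (0.0228) and Cd3g at -2.32 (0.0352), with summed levels of 16.0 to 25.6 CPM in control, 7.82 to 38.4 in Trp53 het, 2.26 to 7.50 in Llgl cKO and 1.59 to 13.2 in Llgl cKO Trp53 het. Of the 5 adipocyte genes, Fabp4 at -2.94 (0.0245) and Retn at -3.83 (0.0378) were the 2 tested and both were lower, with summed levels of 2.01 to 29.1 CPM in control, 2.86 to 17.4 in Trp53 het, 1.67 to 3.57 in Llgl cKO and 0.334 to 0.768 in Llgl cKO Trp53 het, while the defining Adipoq and Plin1 had 0 to 3 counts in every library.

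Fibroblast genes had 1 of 6 called, Fbln1, higher at 0.53 (adjusted p = 0.0218), with summed levels of 114 to 244 CPM in control, 108 to 241 in Trp53 het, 241 to 332 in Llgl cKO and 289 to 393 in Llgl cKO Trp53 het. Of the 6, 4 were higher and 2 lower, from -1.01 to 1.67, with Dcn at 1.67 (0.0687) and the collagen gene Col1a1 at -0.90 (0.281). The summed level rests largely on Fbln1 and Dcn, at 86.2 and 20.7 CPM in control 1, so it does not describe the collagen genes. Dermal papilla genes had 0 of 5 tested called, with summed levels of 4.57 to 13.2 CPM in control, 6.36 to 8.72 in Trp53 het, 8.78 to 23.9 in Llgl cKO and 5.12 to 18.4 in Llgl cKO Trp53 het. Melanocyte genes had 0 of 7 called, and the 1 tested skeletal muscle gene was not called. The 6 tested mitochondrially encoded transcripts were all higher in the average Llgl effect, by 0.15 to 0.31 on the log2 scale, with 0 called. In Llgl cKO Trp53 het against control they were higher by 0.34 to 0.56, with a median of 0.46 and 0 called. Their summed level was 8101 CPM in control 1 and 11144 to 16873 CPM in the other 11 libraries, and was 11639, 15329 and 16873 CPM in Llgl cKO Trp53 het. The part of these levels in the keratin results was not tested. In the average Llgl effect without control 3 and Trp53 het 3, the genes called lower were 7 of 11 of the sebaceous gland, 6 of 7 of T cells, 2 of 2 of adipocytes, 1 of 6 suprabasal and 1 of 6 basal (Col17a1, at -0.45), and 3 of 6 fibroblast genes were called higher. No dermal papilla, melanocyte, skeletal muscle or mitochondrially encoded gene was called in that fit. Over all genes, 7.78% were called lower in it and 8.03% higher.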

How the data were processed

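Total RNA of newborn epidermis was made into stranded mRNA libraries, per the labels' protocols. The authors deposited raw read counts per gene, with no normalization, made with STAR, featureCounts 1.6.4 and DESeq2 2.11.40.8 on GRCm38, per the submitters' processing notes. The annotation release, strand setting and treatment of reads that match several genes are not given in the sources used here.

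edgeR 4.0.16 (R 4.3.3) was run on the counts with TMM scaling, filterByExpr (minimum count 10), and a robust quasi-likelihood fit of 4 group means to 12 libraries with 8 residual degrees of freedom. A call is an adjusted p below 0.05, by Benjamini-Hochberg over the 14582 tested genes, and adjusted p-values are edgeR's unless DESeq2 1.42.0 is named. The p-values measure the spread between mice, and arms of 3 mice limit the precision. Standard errors are the log2 change over the root of F, and 95% intervals use the same fit. The script was tested on simulated data. Levels per kb use the GENCODE M21 protein-coding transcript, and correlations use log2 CPM with a prior count of 2.

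The members, the 19 gene lists (179 genes, 177 in the table) and the rule for named genes were chosen with earlier results of these data known. A further gene was left out because several identifiers share its symbol. Named genes were the members, Llgl1, Llgl2 and Trp53, up to 3 genes a list with the smallest p in the average Llgl effect, and the 6 genes most like the members by each measure of likeness, among genes with a mean of at least 1 CPM. Krt83, Krt84, Hoxc13 and Foxn1 were otherwise named with their values known, Krt83 also by likeness.

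Alternatives were DESeq2, upper-quartile and median-of-ratios scaling, the table without a filter, at least 1 CPM in 3 libraries, only the groups compared, a replicate block and each library left out. Leaving out control 3 and Trp53 het 3 together was chosen after seeing the data. Same-numbered control and Trp53 het samples resembled each other: their deviations from the group means correlated at 0.619, 0.207 and 0.824 across genes. The labels state no pairing, so this is a hint from the data and not from the design.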

Additional observations from a re-analysis of the deposited data

How the results depend on the processing

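Both other scalings and the filter of 1 CPM in 3 libraries left the number of members called as it was in all 7 comparisons, by edgeR. DESeq2 called 7 members in Llgl cKO Trp53 het against control, 7 against Trp53 het, 3 against Llgl cKO and 6 in the average Llgl effect. With no filter on low counts the numbers were 0 against control, 1 against Trp53 het and 2 in the average Llgl effect. Fitting only the groups compared gave 0 against control, and 5 against Trp53 het with Krt32 in place of Krt36. Leaving out control 3 and Trp53 het 3 gave 2 in Llgl cKO against control. Over the fits that leave out a single library the number of members called ran from 0 to 7 in Llgl cKO Trp53 het against control, 0 to 5 against Trp53 het and 1 to 6 in the average Llgl effect, and was 0 in the other 4 comparisons. The cause of these changes was not tested.

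With replicate number as a block, edgeR called 6 members in Llgl cKO Trp53 het against control, 6 against Trp53 het and 6 in the average Llgl effect, and 0 in the other 4 comparisons. Apart from control and Trp53 het, no pair of groups had all same-numbered correlations above 0.1. Between control and Llgl cKO they were 0.117, 0.0687 and 0.129, and each of the 6 samples correlated best with its own number, a hint from the data and not from the design. The block turned the Trp53 het difference from control to 0.089 in Krt33a and 0.036 in Krt34.

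Other turned directions were in values that passed no test. Over the fits that leave out a single library, Krt35 in Llgl cKO against control ran from -0.43 to 0.68. In Trp53 het against control Krt31 ran from -0.59 to 0.22, Krt32 from -0.42 to 0.036, Krt33a from -0.52 to 0.37, Krt34 from -0.64 to 0.41 and Krt35 from -0.50 to 0.024. In the average Llgl effect Trp53 ran from -0.14 to 0.15 and Rnaset2a from -0.22 to 0.045. Leaving out control 3 together with Trp53 het 3 gave 0.16 for Trp53, 0.40 for Krt12 and -0.068 for Lor, which were otherwise at -0.03, -1.88 and 0.21. Over the 19 alternatives to the average Llgl effect, Krt33b kept its call in each, and the call was lost in 2 for Krt31, 3 for Krt34, 5 for Krt33a and 8 for Krt36. Among the other named genes it was lost in 11 for Retn, 10 for Cd3g and Ivl, 9 for Fabp4, Padi3 and Ly6g6d, 8 for Lef1, 7 for Krt27 and Fbln1, 6 for Krt74, 5 for Krt26, Krt83, Krt86, Soat1, Il2rb and Krtap3-1, 4 for Cryba4 and Krtap24-1, 3 for Krt81 and Krt82, 2 for Krt40 and Krtap4-1, and 1 for Krt39 and Tchh. A call was gained in 7 for Vdr, 5 for Krt32, Dcn and Trdc, 3 for Krt75 and Krt6a, 2 for Shh and 1 for Prom1 and Col17a1.

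Few reads limit the lowest values: Krt33b rests on 17 counts over the 3 Llgl cKO Trp53 het libraries.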
